A study of Bos taurus with 15 samples.

Results

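Transcripts of 43 genes of matrix-degrading enzymes and their inhibitors were measured in the endometrium, the lining of the uterus, of 15 pregnant heifers, young cows of Bos taurus, on day 14. The genes are all entries of the deposited table named MMP, ADAMTS or TIMP followed by a number and, in MMP23B, a letter. They make up 20 matrix metalloproteinases (MMPs), 19 ADAMTS proteases (a disintegrin and metalloproteinase with thrombospondin motifs) and 4 tissue inhibitors of metalloproteinases (TIMPs), out of 32671 gene entries. By the labels 5 heifers were High-fertile, 5 Sub-fertile and 5 Infertile. The sources used here do not give their breed or age, or how fertility was assigned. Every heifer, High-fertile ones included, had its cycle set with PGF, GnRH, an intravaginal progesterone insert (CIDR) and injected estradiol and progesterone, and heifers without estrus by day 0 also had GnRH and estradiol benzoate, per the labels' protocols. An embryo made in vivo was transferred on day 7, and forceps took the biopsy after the uterus had been flushed, on the side of the corpus luteum. Each library came from 1 heifer and from a biopsy of mixed cell types, in which fewer cells of a type and less RNA per cell cannot be told apart.

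MMPs are zinc-dependent proteases that cut collagens, gelatin, laminins and other proteins around the cell. Most are made as inactive proforms, some are anchored in the cell membrane, and TIMPs block the active enzymes by binding their catalytic site. ADAMTS proteases are secreted and act on narrower sets of proteins, such as proteoglycans, procollagens, fibrillin microfibrils and von Willebrand factor. In ruminants the conceptus attaches to the endometrium without deep invasion, and the stroma beneath the epithelium is remodelled over the cycle and in early pregnancy.

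Total counts were 38017136 to 62858724 per library, and 37 of the 43 genes passed the filter on low counts and were tested. The edgeR quasi-likelihood test, adjusted over 19962 genes with a threshold of 0.05, passed 0 genes of any kind in each comparison of classes, so differences are also read at an unadjusted p under 0.05. DESeq2 passed 18 genes for Sub-fertile and 34 for Infertile against High-fertile and 11 for Infertile against Sub-fertile, limma-voom 0, 1 and 1, and no member was among them. Defining markers of endometrial epithelium (6 genes, 519 to 1513 CPM in sum) and stroma (7 genes, 6239 to 19995 CPM) were present in all 15 libraries. Libraries fell into sets of 8, 5 and 2 by the counts of 372 pseudogene and ribosomal RNA entries, a split that the labels do not name and whose origin is not known. High-fertile replicate 1 and Infertile replicate 2 were the set of 2, and Sub-fertile replicates 1, 2 and 5 with Infertile replicates 3 and 5 were the set of 5, which held no High-fertile library. Infertile replicate 2 also stood apart in the genes described here, and results that rest on it are given with and without it.

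Levels per gene length differed widely between members. TIMP2 was the most abundant member, at a mean level of 1104 ± 531 FPKM (SD, n = 15; fragments scaled to gene length and library size, as deposited), and it exceeded TIMP3 in 15 of 15 libraries. TIMP3 followed at 210.2 ± 49.8, MMP2 at 173 ± 94.7 and MMP14 at 127 ± 77.8 FPKM, and these 4 were the members at a mean of 100 FPKM or more. TIMP3 was above MMP2 in 12 of 15 libraries, and MMP2 was above MMP14 in all 15. ADAMTS1 (53.4 ± 16.2 FPKM) and TIMP1 (52.8 ± 14.9 FPKM) came next and changed places between heifers, with ADAMTS1 higher in 8 of 15. Another 9 members, these 2 among them, had means from 10 to 100 FPKM, 15 had means from 1 to 10 FPKM, 8 from 0.1 to 1 FPKM and 7 under 0.1 FPKM. In the middle of this order neighbours did not separate: ADAMTS10, MMP11, ADAMTS5, MMP15 and ADAMTS9, at means of 16.7, 14.99, 14.9, 13.6 and 13.3 FPKM, were each above the next in only 7 or 8 of 15 libraries.

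The collagenases and the inducible MMPs were at or near the limit of detection. MMP1, MMP8 and MMP13, the collagenases, had 2, 4 and 14 counts over all 15 libraries, with at most 2, 2 and 4 in any of them. MMP27 had 2 counts in all, MMP3 (stromelysin 1) 51 and MMP9 (gelatinase B) 98, and these 6 genes were the ones not tested. A count of 0 in a library allows up to 3 counts, or 0.0477 to 0.0789 CPM (counts scaled to library size) by library, which covers counting error only. MMP9 had 4, 2, 10, 4 and 12 counts in High-fertile replicates 1 to 5, 0, 0, 4, 2 and 28 in the Sub-fertile and 2, 14, 4, 6 and 6 in the Infertile ones. The classes overlapped, and Sub-fertile replicate 5 held the highest count. MMP20, an enzyme of tooth enamel formation, MMP12, a macrophage elastase, and ADAMTS8 passed the filter with only 109, 175 and 257 counts over the 15 libraries. In the RefSeq gene table for the ARS-UCD2.0 assembly MMP1, MMP12 and MMP13 each lie within 100 kb of MMP3, and MMP7, MMP8 and MMP27 each within 100 kb of MMP20. Of these 8 genes MMP7, or matrilysin, an MMP of epithelia, had the most RNA, at 2.22 ± 1.53 FPKM.

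**Figure D1:**
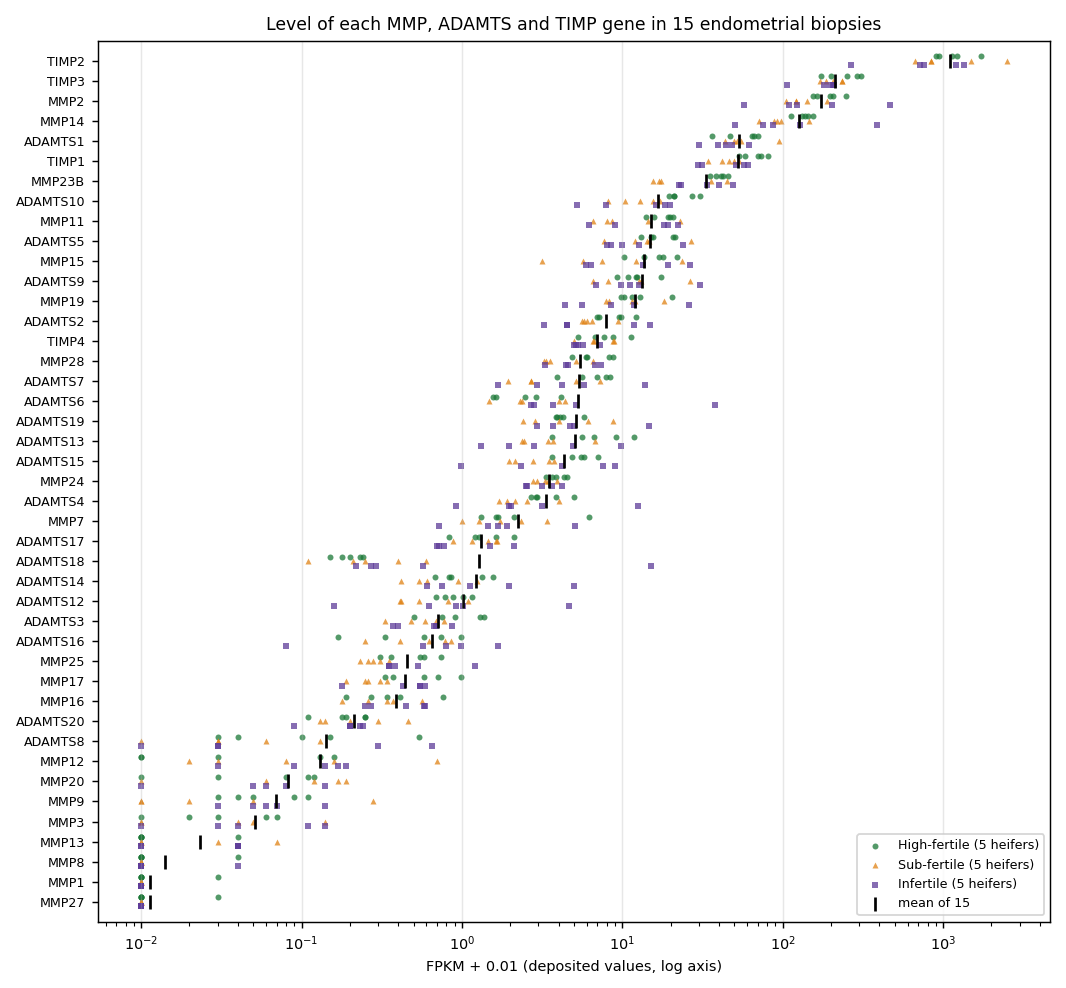
Deposited FPKM plus 0.01 on a log axis for each of the 43 genes, with 1 point per heifer by class and a bar at the mean of 15 libraries. TIMP2, TIMP3, MMP2 and MMP14 lie at a mean of 100 FPKM or more, and the collagenases MMP1, MMP8 and MMP13 at or near 0.

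Among the inhibitors, TIMP1, a secreted inhibitor of most MMPs, was at lower values in both lower classes, and TIMP2 varied most between heifers. Levels of a gene across libraries are given as CPM with TMM factors. TIMP1 was at 68.7, 50.6, 66.9, 55.3 and 76.4 CPM in High-fertile replicates 1 to 5, 50.1, 42.8, 31.2, 48.5 and 40.1 CPM in the Sub-fertile and 58.0, 56.7, 28.8, 47.2 and 28.7 CPM in the Infertile replicates. The Sub-fertile values all lay below the High-fertile ones, by a narrow margin. Infertile replicates 3 and 5 were the lowest of all, and the other 3 Infertile libraries reached into or near the High-fertile range. The means were 42.5 ± 7.53 against 63.6 ± 10.5 CPM (SD, n = 5 each), a log2 fold change of -0.58 ± 0.214 (SE; edgeR unadjusted p = 0.0161, adjusted p = 0.360). For Infertile against High-fertile the log2 fold change was -0.53 ± 0.213 (edgeR unadjusted p = 0.0244, adjusted p = 0.439).

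TIMP2, which inhibits MMPs and also joins MMP14 in the complex that activates pro-MMP2, had widely overlapping classes. Its values were 983, 1030.5, 1874, 1254 and 1320.0 CPM in High-fertile replicates 1 to 5, 723, 892, 1571, 2803 and 920.3 CPM in the Sub-fertile and 878, 284, 755, 1446 and 1334 CPM in the Infertile replicates. Sub-fertile replicate 4 was the highest of all 15 and Infertile replicate 2 the lowest, so the widest contrast lay between heifers of the lower classes. The log2 fold changes against High-fertile were 0.10 ± 0.419 for Sub-fertile and -0.46 ± 0.419 for Infertile heifers (edgeR unadjusted p = 0.820 and 0.290), and -0.23 for Infertile heifers without replicate 2.

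TIMP3, which binds to the matrix and also inhibits ADAM17 and several ADAMTS proteases, was among the steadiest members, with a within-class SD of 0.336 in log2 CPM. It stood at 664, 369, 543, 431 and 621 CPM in High-fertile replicates 1 to 5, 499.8, 436, 353, 410.1 and 507 CPM in the Sub-fertile and 473, 418, 436, 379 and 233 CPM in the Infertile replicates. All classes overlapped, with High-fertile replicate 1 highest and Infertile replicate 5 lowest. The Infertile mean was 388 ± 92.9 and the High-fertile mean 526 ± 124 CPM (log2 fold change -0.44 ± 0.201; edgeR unadjusted p = 0.0454, adjusted p = 0.450). TIMP4, the least abundant inhibitor, was at 10.7, 6.47, 9.49, 8.40 and 13.9 CPM in High-fertile replicates 1 to 5, 10.8, 7.87, 5.89, 8.42 and 10.7 CPM in the Sub-fertile and 6.51, 6.89, 8.63, 6.19 and 6.69 CPM in the Infertile replicates. Infertile libraries sat at the low end of the High-fertile range, at a log2 fold change of -0.49 ± 0.218 (edgeR unadjusted p = 0.0414, adjusted p = 0.450). In the ARS-UCD2.0 gene table TIMP1, TIMP3 and TIMP4 overlap the synapsin genes SYN1, SYN3 and SYN2. TIMP2 overlaps CEP295NL there, whose level was not examined. Whether the counting used strand is not stated in the labels, and reads of the overlapping genes may not be separated. SYN1 and SYN3 reached at most 2.76 and 7.57 CPM, far under TIMP1 and TIMP3, but SYN2 was at 1.30 to 12.6 CPM, the range of TIMP4, whose values are therefore uncertain.

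**Figure D2:**
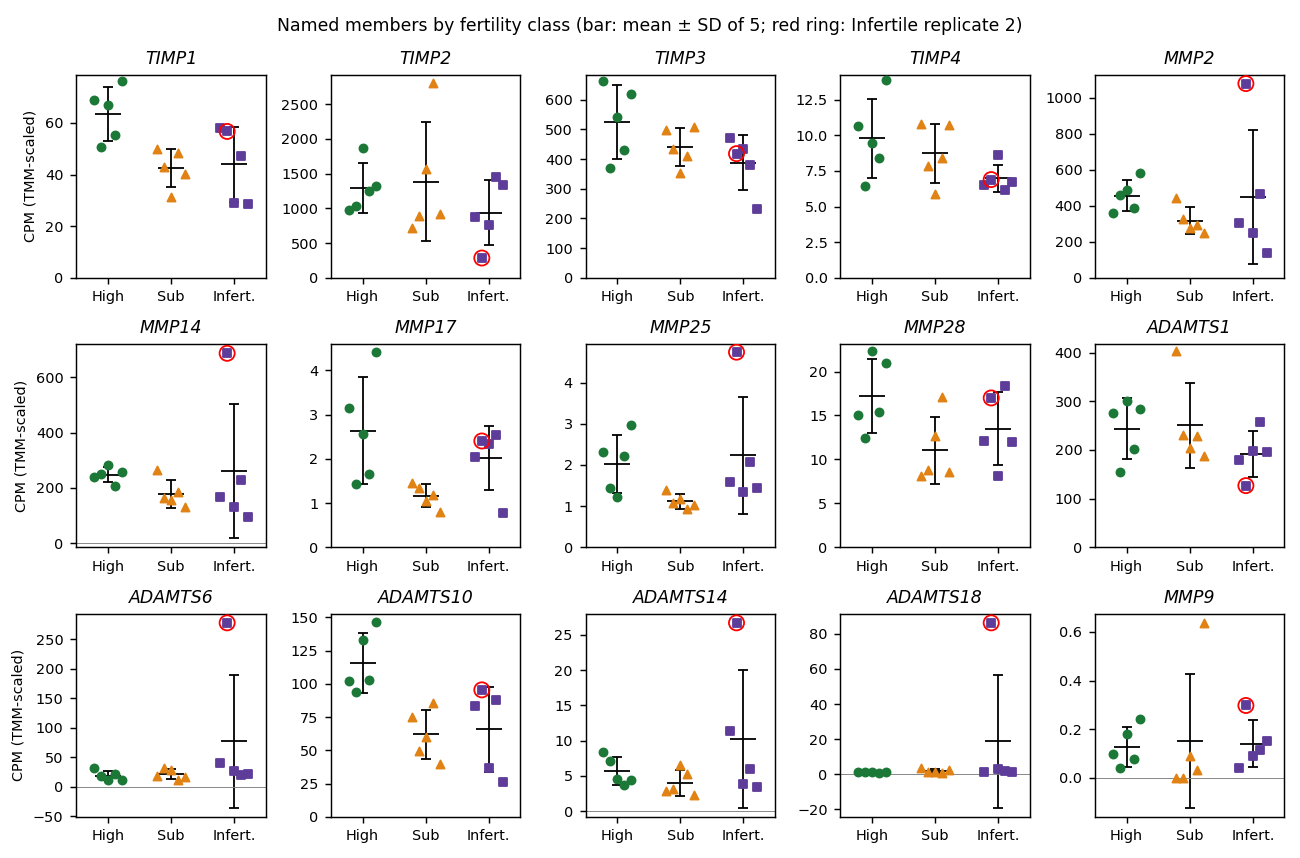
CPM of the 15 named members in each library by class, with the mean and SD of 5 heifers and a red ring around Infertile replicate 2. TIMP1 and ADAMTS10 are the panels in which the Sub-fertile points all lie below the High-fertile ones, and the ring marks the highest of the 15 libraries for MMP2, MMP14, MMP25, ADAMTS6, ADAMTS14 and ADAMTS18.

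MMP2 (gelatinase A), which degrades gelatin and basement membrane collagen, and MMP14 (MT1-MMP), the membrane protease that activates it, had much the same profile over the heifers. MMP2 was at 362, 462, 487, 390.3 and 582 CPM in High-fertile replicates 1 to 5, 444, 327, 274, 293 and 249 CPM in the Sub-fertile and 306, 1080.0, 247, 466 and 139 CPM in the Infertile replicates. MMP14 was at 240.3, 251, 281, 207 and 259 CPM in High-fertile replicates 1 to 5, 263, 165, 155, 183 and 129 CPM in the Sub-fertile and 167, 687, 132, 227 and 93.3 CPM in the Infertile replicates. For both genes Infertile replicate 2 was the highest and Infertile replicate 5 the lowest of all 15 libraries, and 4 of the 5 Sub-fertile libraries lay below every High-fertile one. The log2 fold change of Sub-fertile against High-fertile was -0.53 ± 0.405 for MMP2 and -0.47 ± 0.418 for MMP14 (edgeR unadjusted p = 0.214 and 0.283). For Infertile against High-fertile they were -0.03 and 0.08, and without Infertile replicate 2 they were -0.66 and -0.68 (edgeR unadjusted p = 0.0354 and 0.0135, adjusted p = 0.289 and 0.272). MMP14 overlaps RBM23 in the ARS-UCD2.0 gene table.

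Among the other membrane-type MMPs, MMP17 (MT4-MMP) and MMP25 (MT6-MMP, known from human leukocytes), both held by a lipid anchor, had their lowest class means in Sub-fertile endometrium. MMP17 was at 3.14, 1.43, 2.56, 1.65 and 4.41 CPM in High-fertile replicates 1 to 5, 1.46, 1.34, 1.05, 1.18 and 0.797 CPM in the Sub-fertile and 2.03, 2.40, 2.33, 2.55 and 0.766 CPM in the Infertile replicates. Of the Sub-fertile libraries 4 were below every High-fertile one and replicate 1 was just above the lowest of them, and Infertile replicate 5 was far below the other Infertile libraries. The means were 1.17 ± 0.260 against 2.64 ± 1.21 CPM, a log2 fold change of -1.18 ± 0.365 (edgeR unadjusted p = 0.00570, adjusted p = 0.360), with 1383 counts of MMP17 over all 15 libraries. MMP25 stood at 2.32, 1.43, 1.22, 2.21 and 2.97 CPM in High-fertile replicates 1 to 5, 1.38, 1.07, 1.18, 0.918 and 1.02 CPM in the Sub-fertile and 1.59, 4.74, 1.34, 2.06 and 1.43 CPM in the Infertile replicates. Sub-fertile values were low and close together, and Infertile replicate 2 was the highest of the 15. MMP25 had a log2 fold change of -0.86 ± 0.365 for Sub-fertile against High-fertile (edgeR unadjusted p = 0.0322, adjusted p = 0.360). MMP28 (epilysin), a secreted MMP, was at 15.1, 12.4, 22.4, 15.4 and 21.0 CPM in High-fertile replicates 1 to 5, 8.15, 8.75, 12.6, 17.1 and 8.56 CPM in the Sub-fertile and 12.1, 17.0, 8.07, 18.3 and 12 CPM in the Infertile replicates. Sub-fertile replicates 1, 2 and 5 and Infertile replicate 3 were the lowest 4. MMP28 had a log2 fold change of -0.64 ± 0.265 for Sub-fertile against High-fertile (edgeR unadjusted p = 0.0286, adjusted p = 0.360).

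The remaining tested MMPs were MMP11 (stromelysin 3), MMP15 (MT2-MMP), MMP16 (MT3-MMP), MMP19, MMP23B and MMP24 (MT5-MMP), beside MMP7, MMP12 and MMP20 above. MMP23B, MMP15 and MMP19 had mean levels of 33.3 ± 11.3, 13.6 ± 7.19 and 11.9 ± 5.70 FPKM and MMP16 one of 0.378 ± 0.169 FPKM. The log2 fold changes of MMP19 were -0.17 for Sub-fertile and -0.22 for Infertile against High-fertile, and those of MMP16 were -0.23 and 0.13. Without Infertile replicate 2 the Infertile values were -0.78 for MMP19 and -0.01 for MMP16. MMP24 was the steadiest of all 37 members between heifers, with a within-class SD of 0.240 in log2 CPM, and ADAMTS8 the least steady at 1.79. The median within-class SD was 0.669 over the members and 0.425 over all 19962 genes.

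ADAMTS1, a protease of the proteoglycan versican whose gene is a progesterone receptor target in the mouse ovary, was the leading ADAMTS gene. It was at 276, 155, 301, 202 and 285 CPM in High-fertile replicates 1 to 5, 404, 229.8, 204, 229 and 188 CPM in the Sub-fertile and 179.5, 127, 199, 257 and 196 CPM in the Infertile replicates. The classes overlapped, Sub-fertile replicate 1 was the highest and Infertile replicate 2 the lowest library. ADAMTS1 had a log2 fold change of 0.04 ± 0.242 for Sub-fertile and -0.35 ± 0.242 for Infertile against High-fertile (edgeR unadjusted p = 0.866 and 0.173), and -0.23 for Infertile heifers without replicate 2. ADAMTS10, which binds fibrillin microfibrils, was at 102, 94.1, 133, 103 and 147 CPM in High-fertile replicates 1 to 5, 74.9, 49.2, 60.2, 85.4 and 40.0 CPM in the Sub-fertile and 83.5, 95.5, 36.9, 87.9 and 26.1 CPM in the Infertile replicates. All 5 Sub-fertile libraries were below all 5 High-fertile ones, and among the Infertile libraries only replicate 2 reached the High-fertile range. The means were 61.9 ± 18.5 against 116 ± 22.7 CPM for Sub-fertile against High-fertile (log2 fold change -0.90 ± 0.323; edgeR unadjusted p = 0.0135, adjusted p = 0.360) and 66.0 ± 32.0 CPM for Infertile heifers (log2 fold change -0.81 ± 0.322; edgeR unadjusted p = 0.0236, adjusted p = 0.439).

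ADAMTS6, the closest relative of ADAMTS10, had another profile. It was at 31.1, 18.6, 11.7, 21.9 and 12.2 CPM in High-fertile replicates 1 to 5, 17.7, 32.2, 29.2, 11.3 and 17.3 CPM in the Sub-fertile and 41.1, 277, 26.9, 19.6 and 21.5 CPM in the Infertile replicates. ADAMTS18, a relative of ADAMTS16, was at 1.26, 1.11, 1.32, 0.816 and 0.997 CPM in High-fertile replicates 1 to 5, 3.37, 1.16, 1.32, 0.574 and 2.25 CPM in the Sub-fertile and 1.30, 86.3, 3.13, 1.60 and 1.53 CPM in the Infertile replicates. Infertile replicate 2 was far above all others for both genes, and the remaining libraries of the 3 classes overlapped. The log2 fold change of Infertile against High-fertile was 2.02 ± 0.679 for ADAMTS6 and 4.09 ± 1.14 for ADAMTS18 (edgeR unadjusted p = 0.00957 and 0.00272; adjusted p = 0.435 for both). Without Infertile replicate 2 they were 0.51 and 0.78 (edgeR unadjusted p = 0.164 and 0.0923). ADAMTS6 overlaps CWC27 in the ARS-UCD2.0 gene table. ADAMTS14, a procollagen-processing enzyme, was at 8.46, 7.16, 4.61, 3.72 and 4.47 CPM in High-fertile replicates 1 to 5, 2.85, 3.20, 6.51, 5.23 and 2.23 CPM in the Sub-fertile and 11.3, 26.7, 3.92, 5.92 and 3.37 CPM in the Infertile replicates. Again Infertile replicate 2 was highest, followed by Infertile replicate 1. ADAMTS2 and ADAMTS3, which also process procollagen, had log2 fold changes of -0.47 ± 0.353 and -0.76 ± 0.348 for Sub-fertile against High-fertile (edgeR unadjusted p = 0.207 and 0.0461), and ADAMTS14 one of -0.50 ± 0.513.

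Of the other ADAMTS genes that cut proteoglycans such as aggrecan and versican, ADAMTS5 and ADAMTS9 had mean levels of 14.9 ± 5.87 and 13.3 ± 6.76 FPKM, ADAMTS15 and ADAMTS4 of 4.33 ± 2.29 and 3.34 ± 2.72 FPKM. ADAMTS20, known for its part in mouse pigment cell development, was scarce, at 0.201 ± 0.0896 FPKM. The lowest and highest library of ADAMTS4 differed widely (3.19 CPM in Infertile replicate 5 and 41.9 CPM in Infertile replicate 2), while the log2 fold changes of these 5 genes against High-fertile lay between -0.93 (ADAMTS15, Sub-fertile) and 0.30 (ADAMTS20, Sub-fertile), none at an unadjusted p under 0.05. Without Infertile replicate 2 the values against High-fertile were -0.78 for ADAMTS4, -0.80 for ADAMTS5 and -0.29 for ADAMTS9 in place of 0.23, -0.44 and 0.19. ADAMTS1 and ADAMTS5 are neighbours within 100 kb in the ARS-UCD2.0 gene table, and so are ADAMTS8 and ADAMTS15. ADAMTS13, the protease of von Willebrand factor, had a mean level of 5.08 ± 3.17 FPKM and ranged from 6.51 to 55.7 CPM. Its log2 fold change was -0.99 ± 0.486 for Sub-fertile and -0.85 ± 0.485 for Infertile against High-fertile (edgeR unadjusted p = 0.0594 and 0.102). ADAMTS7 and ADAMTS12, which cleave cartilage oligomeric matrix protein, differed in level, at 5.38 ± 3.18 and 1.00 ± 1.04 FPKM. ADAMTS17 and ADAMTS19, a pair of related genes, were at 1.30 ± 0.472 and 5.12 ± 3.05 FPKM, and ADAMTS16 at 0.645 ± 0.403 FPKM. ADAMTS19 had log2 fold changes of 0.12 and 0.48 for Sub-fertile and Infertile against High-fertile, and ADAMTS17 of -0.06 and -0.27. Without Infertile replicate 2 the Infertile value of ADAMTS19 was -0.11. ADAMTS8, with a count in 13 of 15 libraries, was highest in Infertile replicate 1 at 1.84 CPM. It had the lowest log2 fold change of any member for Sub-fertile against High-fertile, -1.81 ± 1.27 (edgeR unadjusted p = 0.176). High-fertile replicate 1 was at 1.43 CPM and the rest of its class at 0.0407 to 0.393 CPM. Without High-fertile replicate 1 and Infertile replicate 2 the value was -0.62. Within the 8-library set it was -0.08, and 0.26 with the library set as a covariate.

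Inhibitor RNA exceeded MMP RNA in 14 of 15 libraries. The summed level of the 4 TIMPs divided by that of the 20 MMPs, both in FPKM, was 3.37, 2.69, 4.49, 3.67 and 3.21 in High-fertile replicates 1 to 5. It was 2.49, 3.81, 5.66, 8.52 and 4.91 in the Sub-fertile and 3.47, 0.541, 4.03, 3.61 and 8.52 in the Infertile replicates. Infertile replicate 2 was the library with more MMP than TIMP RNA, and Infertile replicate 5 and Sub-fertile replicate 4 had the highest ratios. TIMP2 made up 50.0% to 91.2% of the TIMP sum, and MMP2 with MMP14 67.9% to 86.9% of the MMP sum, so 3 genes set most of this ratio. The ratio of TIMP2 to MMP2 was 4.83 to 8.33 in High-fertile, 3.52 to 20.7 in Sub-fertile and 0.569 to 20.8 in Infertile libraries, whereas that of MMP2 to MMP14 stayed between 1.15 and 1.74 throughout. The summed ADAMTS level ranged from 82.1 FPKM in Infertile replicate 5 to 238 FPKM in Infertile replicate 2.

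Across the 15 libraries MMP2 and MMP14 varied together. Pearson's r of their log2 CPM was 0.968 and Spearman's rho 0.932, each with a two-sided permutation p of 1e-05, the smallest that 100000 resamples can give, and 8e-05 adjusted over the 8 relations examined. Without Infertile replicates 2 and 5, the 2 libraries farthest from the median of MMP14, r was 0.926 (permutation p = 2e-05), with the class means removed it was 0.965, and within the 8-library set 0.938 (n = 8, exact permutation p = 0.00144). MMP2 also varied with the mean log2 CPM of 7 markers of stromal fibroblasts (r = 0.795, rho = 0.807; permutation p = 0.000510 and 0.000500, adjusted p = 0.00204 and 0.00200). This held without Sub-fertile replicate 1 and Infertile replicate 5 (r = 0.781) and within the 8-library set (r = 0.919; n = 8, exact permutation p = 0.00169). TIMP2 had no called relation with either (r = -0.436 with MMP2 and -0.466 with MMP14, rho = -0.0464 and -0.0964; permutation p of r = 0.106 and 0.0853, of rho 0.875 and 0.735, adjusted p of r = 0.199 for both). The negative r rested on Infertile replicate 2 and Sub-fertile replicate 4, without which it was 0.157 and 0.168. ADAMTS1 and PGR, the progesterone receptor gene (in the table, progesterone receptor-like), had an r of -0.371 and a rho of -0.161 (permutation p = 0.172 and 0.568; adjusted p = 0.230 and 0.840). The other 3 relations, TIMP3 with smooth muscle markers and MMP9 with TIMP1 and with macrophage markers, had adjusted permutation p of 0.237, 0.862 and 0.199 for r.

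**Figure D3:**
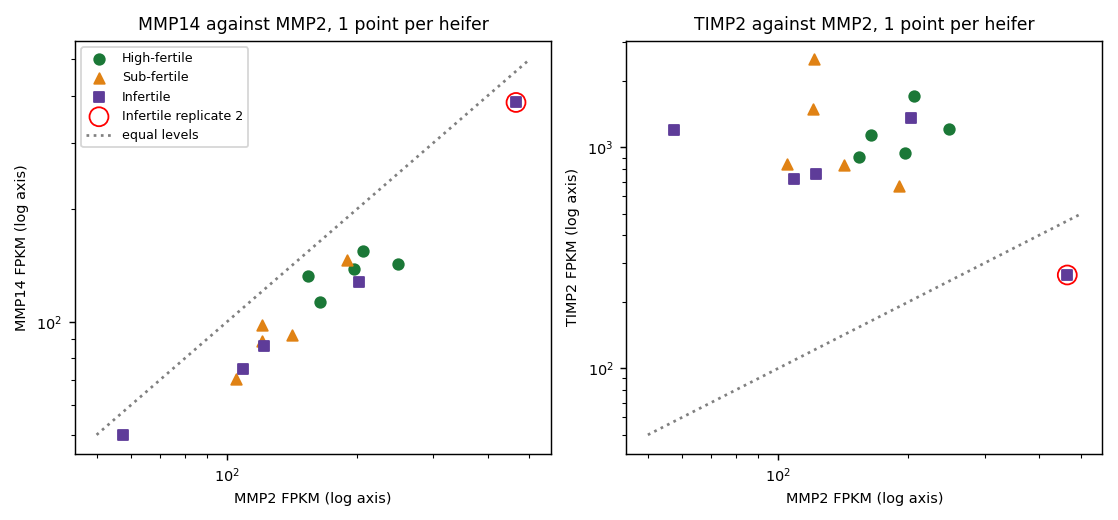
Deposited FPKM of MMP14 (left) and TIMP2 (right) against MMP2 on log axes, 1 point per heifer by class, with a dotted line at equal levels. MMP14 follows MMP2 over all 15 heifers, and Infertile replicate 2, ringed, is the point at which TIMP2 falls below MMP2.

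Against High-fertile endometrium most tested members stood lower in Sub-fertile heifers, none past the adjusted threshold. Of 37 members 27 had a negative log2 fold change, among them 12 of 14 MMPs, 12 of 19 ADAMTS genes and 3 of 4 TIMPs. The median was -0.47 over the members and 0.01 over all 19962 genes, of which 49.0% were negative. None of the members passed the adjusted threshold, as was so for 0% of all genes, and the smallest adjusted p among them was 0.360 (edgeR). At an unadjusted p under 0.05 there were 6 members, all lower, MMP17, ADAMTS10, TIMP1, MMP28, MMP25 and ADAMTS3, or 16.2% of those tested. Over all genes tested 7.14% were lower at that p, 6.58% were higher and 13.7% were either. The Sub-fertile and High-fertile libraries did not overlap for 2 of 37 members, ADAMTS10 and TIMP1, or 5.41%, against 5.07% of all genes. The library sets moved with this comparison, since 3 of the 5 Sub-fertile and no High-fertile library were in the 5-library set. With the set as a covariate the median of the members was -0.09 and 1 of them, MMP17, remained at an unadjusted p under 0.05 (log2 fold change -0.99; edgeR unadjusted p = 0.0485, adjusted p = 1.000), against 501 of 19962 genes, a like share. TIMP1 and ADAMTS10 then had log2 fold changes of -0.31 and -0.32. Within the 8-library set, with 2 Sub-fertile and 4 High-fertile libraries, 30 of 37 members were negative, with a median of -0.57, and 8 were at an unadjusted p under 0.05, all lower, against 1528 of 20577 genes tested there in either direction. MMP2 (-0.77), MMP14 (-0.57), MMP17 (-1.18), ADAMTS10 (-0.72) and TIMP1 (-0.65) were among these. The number at an unadjusted p under 0.05 was 3 when High-fertile replicate 5 was left out, and also 3 when Sub-fertile replicate 2, or replicate 5 of that class, was, against 1628 of 20138, 1419 of 20260 and 1120 of 20291 genes. Stromal fibroblast markers summed to 8224 to 13273 CPM in High-fertile and 7118 to 16872 CPM in Sub-fertile libraries. Of these 7 genes 6 were negative for Sub-fertile against High-fertile, with a median of -0.17. PDGFRB (-0.46) was the 1 at an unadjusted p under 0.05 (edgeR unadjusted p = 0.0491). The 6 smooth muscle markers summed to 702 to 10630.3 and 485 to 5345 CPM. All 6 were negative, with a median of -1.06 and 0 at that p. None of the genes of either list was at 0. The 5 macrophage markers summed to 55.1 to 115 CPM in High-fertile, 47.0 to 63.2 CPM in Sub-fertile and 38.0 to 102 CPM in Infertile libraries. For Sub-fertile against High-fertile all 5 were negative, with a median of -0.64 and 2 at an unadjusted p under 0.05. The 5 endothelium markers, at 426 to 754 CPM in High-fertile, 356 to 554 CPM in Sub-fertile and 379.9 to 526 CPM in Infertile libraries, were also all negative, with a median of -0.37 and 2 at that p. The 4 B cell markers were scarce, at 2.03 to 38.3 CPM in High-fertile, 0.606 to 1.04 CPM in Sub-fertile and 1.13 to 2.72 CPM in Infertile libraries. All 4 were lower at that p, with a median of -3.43 (POU2AF1 had edgeR adjusted p = 0.320). The sum of 38.3 CPM was that of High-fertile replicate 1, and the rest of its class lay between 2.03 and 2.54 CPM. The size of the B cell log2 fold changes against High-fertile thus rests in part on 1 library. None of these markers was at 0 in any library. For Infertile against High-fertile 1 macrophage, 2 endothelium and 4 B cell markers were lower at that p. Of the 5 neutrophil markers 2 were higher at that p, with a median of 1.54. Without Infertile replicate 2 there were 3 macrophage, 2 endothelium and 4 B cell markers lower. The neutrophil markers then had 0 higher and a median of 0.09. Stromal fibroblast markers had 0 lower at that p with Infertile replicate 2 and 1 without it. The 5 neutrophil and 4 T cell markers had 0 at that p for Sub-fertile against High-fertile. With the library set as a covariate the smooth muscle markers had a median of 0.02 for Sub-fertile against High-fertile, with 2 of 6 negative. The medians were then -0.18 for stromal fibroblast, -0.36 for macrophage and -0.15 for endothelium markers, each list with 0 at that p. The B cell markers had a median of -2.31 in that fit, with 3 lower at that p. The part of these markers in the differences of the members was not tested.

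**Figure D4:**
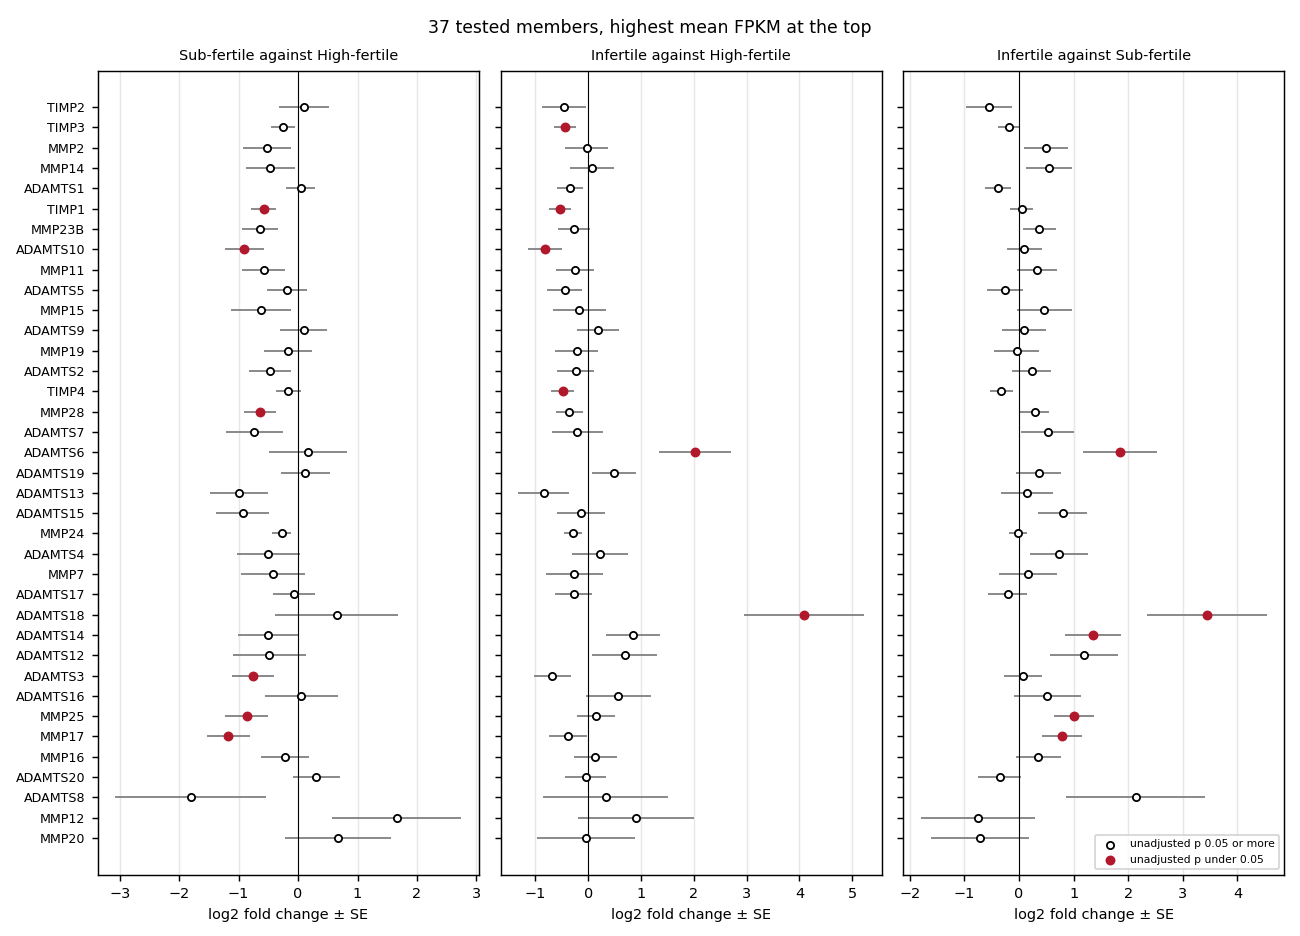
Log2 fold change and its standard error (edgeR) of the 37 tested members in the 3 comparisons, ordered by mean FPKM, with filled points at an unadjusted p under 0.05. The 6 filled points of Sub-fertile against High-fertile all lie below 0, and the 5 of Infertile against Sub-fertile all above it.

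Infertile against High-fertile endometrium, a comparison with the same High-fertile libraries, had all 4 TIMPs at negative log2 fold changes, from -0.53 (TIMP1) to -0.44 (TIMP3). TIMP1, TIMP3 and TIMP4 were at an unadjusted p under 0.05, as was ADAMTS10 on the lower side and ADAMTS6 and ADAMTS18 on the higher side. These 6 members are 16.2% of those tested, against 11% of all genes, of which 3.89% were lower and 7.14% higher. Of all 37 members 24 were negative, with a median of -0.21 against 0.04 over all genes, and none passed the adjusted threshold (0% of all genes; smallest adjusted p 0.435, edgeR). For no member did the libraries of the 2 classes stay apart, against 2.22% of all genes. Without Infertile replicate 2, 31 of 37 members were negative with a median of -0.36, and 8 were at an unadjusted p under 0.05, all lower, against 3262 of 20146 genes tested in either direction. Besides ADAMTS10, TIMP1 and TIMP3 these were MMP2, MMP14, MMP19 (-0.78), ADAMTS4 (-0.78) and ADAMTS5 (-0.80). With the library set as a covariate 4 members were at an unadjusted p under 0.05, TIMP4 (-0.64) and ADAMTS10 (-0.59) lower and ADAMTS6 (1.30) and ADAMTS14 (0.96) higher, against 1529 of 19962 genes. TIMP1 was at -0.44 in that fit (edgeR unadjusted p = 0.0523). The covariate sets Infertile replicate 2 against High-fertile replicate 1, the other library of its set. ADAMTS6 was at 277 and 31.1 CPM in these libraries and ADAMTS14 at 26.7 and 8.46 CPM, so the higher values still rest in part on Infertile replicate 2. A fit with the covariate and without that library was not run. Within the 8-library set, with 2 Infertile and 4 High-fertile libraries, no member was at that p, against 904 of 20577 genes tested there, and in all 3 classes without High-fertile replicate 5 there were 2, against 1423 of 20138 genes. Without Infertile replicate 5 the median of the members was 0.01, and without Infertile replicate 3 it was -0.09.

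Between Infertile and Sub-fertile endometrium 26 of 37 members had a positive log2 fold change, with a median of 0.29 against 0.03 over all genes. ADAMTS18, MMP25, ADAMTS6, ADAMTS14 and MMP17 were at an unadjusted p under 0.05, all higher, which is 13.5% of the members tested against 2.63% of all genes (1.91% higher). No member passed the adjusted threshold (0% of all genes; adjusted p 0.998 for all members, edgeR), and none had classes apart, against 0.205% of all genes. Without Infertile replicate 2, 0 members were at an unadjusted p under 0.05, against 314 of 20146 genes tested, and 17 of 37 were positive with a median of -0.08. MMP17, for which that library lay among the others of its class, then had a log2 fold change of 0.72 in place of 0.79 (edgeR unadjusted p = 0.0817 in place of 0.0456). The values without that library were lower for MMP25 at 0.53 (from 1.00), ADAMTS14 at 0.61 (from 1.35), ADAMTS6 at 0.34 (from 1.84) and ADAMTS18 at 0.13 (from 3.44). The test of any difference among the 3 classes had 6 members at an unadjusted p under 0.05, or 16.2%, against 8.42% of all genes, and passed 0 after adjustment (0% of all genes; edgeR).

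Infertile replicate 2 had the highest level of 14 of the 37 tested members and the lowest of 4. Over all genes tested this library was highest for 15.5% and lowest for 16.1%, while its shares of the members were 37.8% and 10.8%. ADAMTS18 was at 86.3 CPM in it against a median of 1.31 CPM in the other 14 libraries, a ratio of 65.9. The ratio was 13.5 for ADAMTS6, 5.88 for ADAMTS14, 5.80 for ADAMTS12, 4.62 for ADAMTS4, 3.52 for MMP14 and 3.13 for MMP2. On the low side stood ADAMTS16 (0.362 CPM against 0.816 to 8.25 CPM elsewhere), TIMP2, ADAMTS1 and MMP24. ADAMTS16 and ADAMTS18, which are close relatives, thus lay at opposite ends in the same heifer. Other genes moved in this library as well. PGR was at 51.5 CPM against 1.89 to 15.1 CPM in the other 14, and ESR2 (estrogen receptor beta) at 26.3 against 59.4 to 138 CPM. COL1A1 and COL1A2, the chains of type I collagen, were at 6893 and 8854 CPM, against at most 3357 and 5563 CPM elsewhere. The other stromal fibroblast markers were not raised in the same way. PDGFRA was at 134.5 CPM, below the 172.6 to 487.6 CPM elsewhere, and DCN, LUM, PDGFRB and VIM lay inside the range of the other libraries. The 5 neutrophil markers summed to 192 CPM in it and 5.14 to 34.5 CPM elsewhere, none at 0, S100A12 alone at 121 CPM. MMP8 and MMP9, stored in neutrophil granules in humans, had 2 and 14 counts there. The 5 trophoblast markers summed to 132 CPM in it and 14.2 to 43.4 CPM elsewhere, of which KRT7, a keratin also of uterine epithelium, gave 114 CPM. TFAP2C, a transcription factor of trophoblast, was at 12.3 CPM there and 1.80 to 6.88 CPM elsewhere. The other 3 were inside the range of the other libraries, with CDX2 at 0, as it was in 7 of the 15 libraries, IFNT2 (interferon tau) at 0.532 CPM and PAG1 at 4.94 CPM. The part of these markers and of the library set in the member values was not tested.

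Infertile replicate 5 stood at the other end, with the lowest level of 14 members, or 37.8%, against 12.6% of all genes. High-fertile replicate 5 was highest for 9 members, 24.3% against 7.40% of all genes. The 14 lowest values of Infertile replicate 5 included MMP2, MMP14, TIMP1, TIMP3 and ADAMTS10. It belongs to the 5-library set. Its stromal fibroblast markers summed to 6239 CPM, the lowest of the 15 libraries, and their part in its low values was not tested.

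Several members differed between the library sets. The sets were drawn from counts of these same libraries, so p-values between them do not have the meaning they have for groups fixed beforehand. With class in the edgeR model, 8 of 37 members, or 21.6%, passed the adjusted threshold between the 5- and the 8-library set, all 8 lower in the 5-library set. Over all genes 31.6% passed, 18.1% lower and 13.5% higher. In either direction the share of the members was thus below that of all genes, and on the lower side it was 21.6% against 18.1%. MMP11 was at 21.1 ± 3.17 against 51.2 ± 8.64 CPM (SD, n = 5 and 8; log2 difference -1.36 ± 0.156, edgeR adjusted p = 7.63e-05). MMP23B, an MMP of unusual structure that lacks the hemopexin domain, was at 25.8 ± 4.73 against 55.6 ± 7.15 CPM (log2 difference -1.10 ± 0.127; edgeR adjusted p = 7.96e-05). MMP15 was at 20.8 ± 5.83 against 60.7 ± 19.0 CPM (log2 difference -1.61). For these 3 genes every library of the 5-library set lay below every library of the 8-library set. ADAMTS7, which cleaves cartilage oligomeric matrix protein, MMP28 and MMP24 were also apart, which makes 6 of 37 members, or 16.2%, against 23.3% of all genes. ADAMTS14 and ADAMTS10 passed with overlapping ranges. High-fertile libraries are absent from the 5-library set, so that part of this contrast and of the class contrast cannot be told apart. Between Sub-fertile and High-fertile libraries the ranges of MMP23B overlapped. It was at 21.0, 23.1, 46.6, 62.6 and 23.1 CPM in Sub-fertile replicates 1 to 5, where replicates 1, 2 and 5 belong to the 5-library set, and at 51.7, 61.3, 55.8, 58.0 and 47.9 CPM in the High-fertile ones. Its log2 fold change of Sub-fertile against High-fertile was -0.64, and -0.04 within the 8-library set. MMP11 went from -0.58 to 0.08 and MMP15 from -0.63 to 0.17 in the same way. TIMP1 (-0.58 and -0.65) and MMP17 (-1.18 and -1.18) had like values in both.

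**Figure D5:**
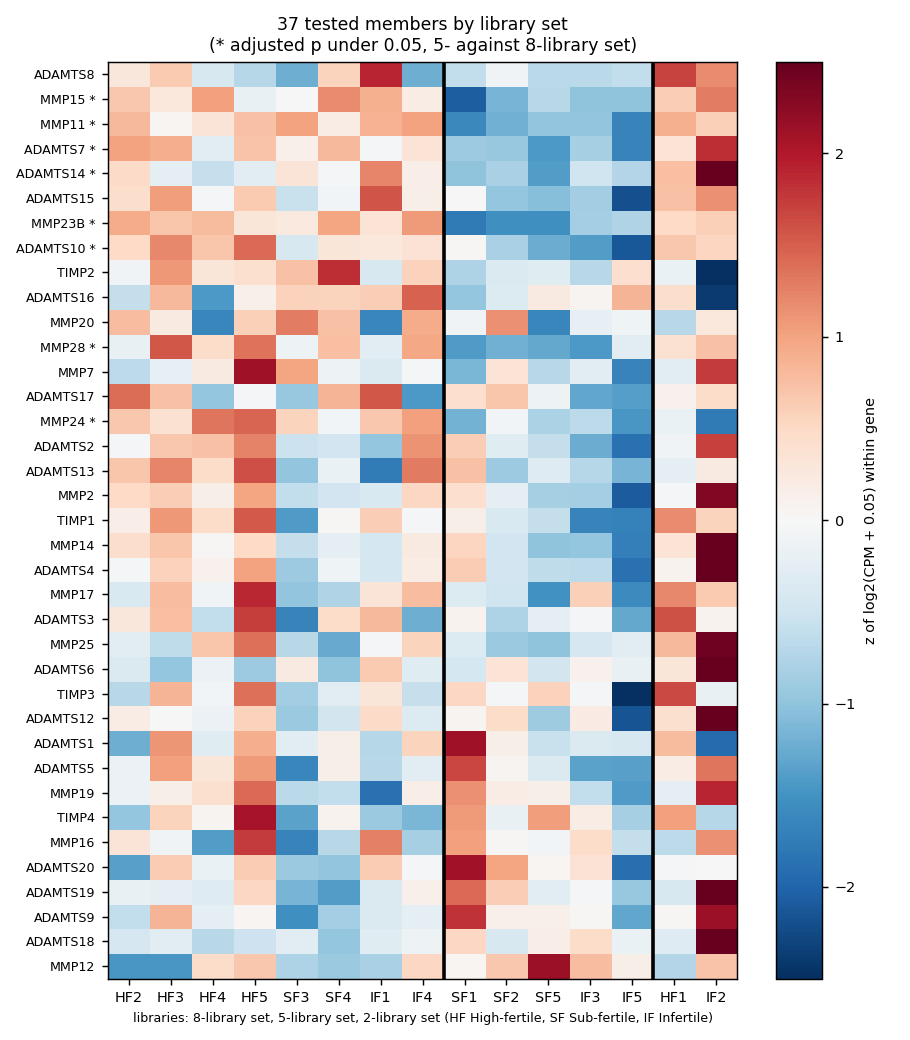
Heat map of the 37 tested members (rows, by their difference between sets) over the 15 libraries (columns, grouped by library set), as z-scores of log2(CPM + 0.05) within each gene. MMP15, MMP11 and MMP23B, which are starred, are low in all 5 libraries of the middle block, while the starred ADAMTS10 and ADAMTS14 overlap between the blocks. Infertile replicate 2, at the right edge, holds the highest values of 14 genes.

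Genes that act on the same enzymes passed the adjusted threshold in no comparison (edgeR). Of 16 tested activators and regulators of metalloproteinases, such as plasminogen activators, furin and RECK, 12 had negative log2 fold changes for Sub-fertile against High-fertile, none at an unadjusted p under 0.05. LRP1, the receptor that clears MMP and TIMP complexes, was the nearest at -0.57 ± 0.281 (edgeR unadjusted p = 0.0608). For Infertile against High-fertile 3 were lower and 1 higher at that p, the higher being SPOCK1, a proteoglycan of the testican family (log2 fold change 1.04 ± 0.405). SPOCK1 was at 250.4 CPM in Infertile replicate 2 and 36.5 to 76.2 CPM in the other 14 libraries. Without that library its log2 fold change was 0.29 (edgeR unadjusted p = 0.176), and the list had 3 lower and 0 higher. Of 7 ADAMTS-like genes and papilin, which share the ADAMTS modules without the protease domain, all 7 were negative for Sub-fertile against High-fertile, and ADAMTSL2 was at an unadjusted p under 0.05 (log2 fold change -1.13 ± 0.472). ADAM8, a leukocyte protease, was at lower values in both classes (-0.86 for Sub-fertile and -0.67 for Infertile against High-fertile; edgeR unadjusted p = 0.0148 and 0.0476), and it was the 1 of 8 ADAM genes at that p in each. Among 16 tested substrates of ADAMTS proteases 12 were negative for Sub-fertile against High-fertile, with BGN (biglycan, a small proteoglycan) at 82.9 ± 18.0 against 145 ± 36.3 CPM (log2 fold change -0.81 ± 0.246; edgeR unadjusted p = 0.00512). Its value for Infertile against High-fertile was -0.77 ± 0.246 (edgeR unadjusted p = 0.00713). Of 16 transcription factors known to drive MMP genes, 0 were at an unadjusted p under 0.05 for Sub-fertile and 2, both lower, for Infertile against High-fertile, 1 of them FOSL2, an AP-1 subunit (-0.59 ± 0.164; edgeR unadjusted p = 0.00284). With the library set as a covariate the log2 fold changes of ADAMTSL2, ADAM8 and BGN for Sub-fertile against High-fertile were -0.46, -0.32 and -0.50, none at an unadjusted p under 0.05. For Infertile against High-fertile in that fit BGN was at -0.66 and FOSL2 at -0.64 (edgeR unadjusted p = 0.0181 and 0.00247). ADAM8 was then at -0.44 (edgeR unadjusted p = 0.0799). The 3 steroid receptor genes, among them PGR, had none at that p in any comparison.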

How the data were processed

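RNA from whole endometrial biopsies of 15 heifers was sequenced, 1 library each. Per the submitters' processing notes the authors used FastQC, Subread, featureCounts and edgeR with the UMD3.1 bovine genome; the labels state no version and no strand setting. The deposited counts are whole numbers per gene entry and were used for all tests; the authors' deposited FPKM, scaled to gene length and library size, were used to compare levels between genes.

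The members were every entry whose symbol was MMP, ADAMTS or TIMP with a number, and 42 of 43 had a current symbol in the RefSeq gene table for ARS-UCD2.0, MMP23B matching as a synonym. Members and gene lists were chosen with earlier results of these data known. Named with values in every library were the 4 members with the smallest unadjusted p in each comparison, the 6 with the highest mean FPKM, all TIMPs, and MMP2, MMP9, MMP14 and ADAMTS1; genes of other lists were named by their smallest p.

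Genes were filtered by class (filterByExpr), normalized by TMM and fitted over all 15 libraries with edgeR 4.0.16 (R 4.3.3; glmQLFit robust, two-sided quasi-likelihood test, 12 residual degrees of freedom), with Benjamini-Hochberg adjustment over 19962 genes and a threshold of 0.05. Standard errors are the absolute log2 fold change divided by the root of F. Alternatives were RLE factors, other filters, DESeq2 1.42.0, limma-voom (limma 3.58.1), the library set as a covariate, fewer libraries, and each library left out; the fit was tested on simulated data. The fits within the 8-library set and between library sets, the counts of extremes by library the marker levels beside Infertile replicate 2 and other fits of the gene lists were added after seeing the data. Correlations used log2 CPM (prior count 2) and two-sided permutation tests, exact for the 8-library set. Nothing says the heifers were paired, and the p-values measure the spread between these heifers. The precision of counting alone is set by 38017136 to 62858724 counts per library, and floors cover counting error only.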

Additional observations from a re-analysis of the deposited data

Results flagged for a closer look

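Each of 42 groups of 5 libraries was a tested named member in 1 class. Of these, 4 held a library far from the other 4 by Dixon's test on log2 CPM (critical value 0.71). Chance gives such a library in about 1 of 20 groups of genes picked beforehand, so the count cannot be set against that rate here. Members were named partly by small p in these data, which for ADAMTS18 and ADAMTS6 rested on Infertile replicate 2, and groups share libraries. ADAMTS18 was at 86.3 CPM in Infertile replicate 2, with the other 4 Infertile libraries at 1.30 to 3.13 CPM. In the same library ADAMTS6 was at 277 CPM, with the others at 19.6 to 41.1 CPM. ADAMTS1, a versican protease, was at 404 CPM in Sub-fertile replicate 1, with the others of its class at 187.5 to 229.8 CPM. MMP17, a membrane-type MMP, was at 0.766 CPM in Infertile replicate 5, below the 2.03 to 2.55 CPM of the others.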

How the results depend on the processing

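The number of members past the adjusted threshold was 0 in every comparison under every alternative run, and the log2 fold changes of the 4 members with the smallest p in each comparison kept their sign throughout. DESeq2 gave no p for ADAMTS18. Members at an unadjusted p under 0.05 numbered 6 between Sub-fertile and High-fertile heifers in the fit reported. They were 1 with the library set as a covariate, 11 with the 10 libraries compared alone and 3 to 8 with a library left out. For Infertile against High-fertile, also 6, they were 0 within the 8-library set and 2 to 8 with a library left out. For Infertile against Sub-fertile, 5, they were 2 with the covariate, 0 without High-fertile replicate 1 and Infertile replicate 2, 2 within the 8-library set, 1 by limma-voom and 0 to 7 with a library left out. For any difference, 6, they were 3 with the covariate, 3 by limma-voom and 4 to 9 with a library left out. Correlations that changed sign were MMP9 with TIMP1 on residuals from the class means (r from 0.049 to -0.030), and MMP2 and MMP14 with TIMP2 without the 2 libraries farthest on TIMP2 (0.157 and 0.168). MMP9 with macrophage markers had a higher r within the 8-library set (r = 0.816; exact permutation p = 0.00747), where MMP9 had few counts. The rho there was 0.595 (exact permutation p = 0.132). In all sets without High-fertile replicate 5 and Infertile replicate 2, r was 0.161 (n = 13, permutation p = 0.593). By DESeq2 the numbers at an unadjusted p under 0.05 were 9, 5 and 5 in the 3 pairwise comparisons, and by limma-voom 7, 4 and 1. The number of all genes called in the same fit is given in the Results for some of these fits only. For the other fits the counts cannot tell the members from genes in general, since a fit may call more or fewer of all genes. The cause of the changes between fits was not tested. No paired analysis was possible because the labels give no replicate numbers that tie heifers of different classes. Counts limit the low members, since MMP1, MMP8, MMP13 and MMP27 had at most 4 counts in any library.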
